A study of Mus musculus with 4 samples.

Results

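The genes described here are 36 effectors of the antiviral state that type I interferon sets up, from sensors of foreign nucleic acid to the proteins that block viral entry, translation, replication and release. Their transcripts were followed in peritoneal macrophages, on 2 arrays from wild type mice and 2 from mice without CD13, a membrane aminopeptidase that is the product of Anpep. A gene was measured if some probe carrying its symbol stood above background (detection p-value below 0.01) on 2 or more of the 4 arrays, and the probe with the highest mean deposited signal stood for it. Of the 36 genes, 24 were measured, 10 had probes that did not pass this limit, and 2, Ifi44 and Herc6, had no probe listed under their names in the annotation used here. The 24 were part of 10335 genes and unnamed probes tested. Per the labels, both groups were of strain C57BL/6 and differed in genotype, CD13 knock out against wild type; no age, sex, treatment or number of animals per array is given in the sources used here. The series text describes the macrophages as resting and names peritoneal or bone marrow derived cells, and the labels, which give peritoneal macrophages for each array, were followed. Nothing in the labels says that the 2 arrays of a group came from separate mice, so the spread behind each p-value is that between these samples and may be technical.

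Type I interferon signals through its receptor and the kinases Jak1 and Tyk2 to a complex that includes Stat2 and Irf9, which binds interferon-stimulated response elements in the promoters of these genes. Resident macrophages keep a low tonic level of this programme and raise it sharply when they meet virus or interferon.

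Values are log2 intensities after background correction and quantile normalization, and a change is the knockout mean minus the wild type mean, with the moderated standard error (SE) of limma on 2 arrays per group. The median deposited signal was 167.1 and 127.6 on the wild type arrays, against 122.4 and 109.0 on the knockout arrays. Over the arrays, 13659 to 14823 probes were above background. Anpep, the targeted gene, had log2 intensities of 13.58 and 13.40 in wild type, against 11.12 and 11.03 in knockout, a change of -2.41 ± 0.18 (SE, limma adjusted p = 0.0261). Of 8 macrophage markers, 7 were measured, among them Lyz2, Cd14 and Csf1r, all above background on every array. With 2 arrays against 2, a two-sided exact permutation test of a single gene cannot give a p below 0.333.

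The 6 promoters printed here are those of the measured members with the response element letters upstream of the start site. Each is the last 160 bases before the RefSeq start site on build GRCm38.p6, written 5′ to 3′ on the gene's own strand, with matches to GAAA-NN-GAAA (N is any base) on either strand in capitals. Overlapping matches run together.
Isg15, chr4:156200819-156200978, minus strand: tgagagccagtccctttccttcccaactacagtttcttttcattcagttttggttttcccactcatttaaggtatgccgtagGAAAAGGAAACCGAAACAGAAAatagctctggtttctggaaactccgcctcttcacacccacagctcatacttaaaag
Ifit3, chr19:34583369-34583528, plus strand: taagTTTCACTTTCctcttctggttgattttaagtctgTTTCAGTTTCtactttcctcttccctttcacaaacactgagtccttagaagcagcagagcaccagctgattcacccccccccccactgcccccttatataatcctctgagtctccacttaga
Rsad2, chr12:26456453-26456612, minus strand: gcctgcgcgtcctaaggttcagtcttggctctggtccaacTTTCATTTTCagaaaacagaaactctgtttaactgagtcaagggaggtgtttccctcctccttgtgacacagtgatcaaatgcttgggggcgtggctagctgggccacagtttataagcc
Oas1a, chr5:120907526-120907685, minus strand: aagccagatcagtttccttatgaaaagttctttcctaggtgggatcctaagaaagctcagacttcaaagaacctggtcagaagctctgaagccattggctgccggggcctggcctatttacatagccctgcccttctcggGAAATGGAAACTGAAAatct
Oas1g, chr5:120887614-120887773, minus strand: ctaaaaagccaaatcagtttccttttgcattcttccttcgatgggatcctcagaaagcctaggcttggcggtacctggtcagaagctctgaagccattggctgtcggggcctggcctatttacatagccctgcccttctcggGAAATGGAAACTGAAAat
Bst2, chr8:71537473-71537632, minus strand: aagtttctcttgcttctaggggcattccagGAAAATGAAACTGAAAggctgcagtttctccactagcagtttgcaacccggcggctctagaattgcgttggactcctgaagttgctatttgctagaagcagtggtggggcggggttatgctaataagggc

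Isg15 carries 3 overlapping matches, Ifit3 has 2 separate matches on the opposite strand, and Rsad2 has 1, also on the opposite strand. Oas1a and Oas1g, neighbouring genes with 0 protein-coding genes between them, share the same run of 2 overlapping matches directly before the start site. RefSeq promoter windows of 300 bases, from 250 before to 50 after the start site, were given for 18 of the 24 measured members, and 9 of the 18 (50%) held GAAA-NN-GAAA. Over all genes with a window the share was 3.99%, and over genes tested on the arrays 3.96%. The gamma-activated site letters TTC-NNN-GAA were in 7 of the 18 (38.9%), against 8.44% of the genes tested. In Bst2 and Ifitm3 a match of one kind overlapped a match of the other. The members were chosen as interferon-induced genes, so these shares describe the choice, and a match is a run of letters, not a shown binding site.

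**Figure D1:**
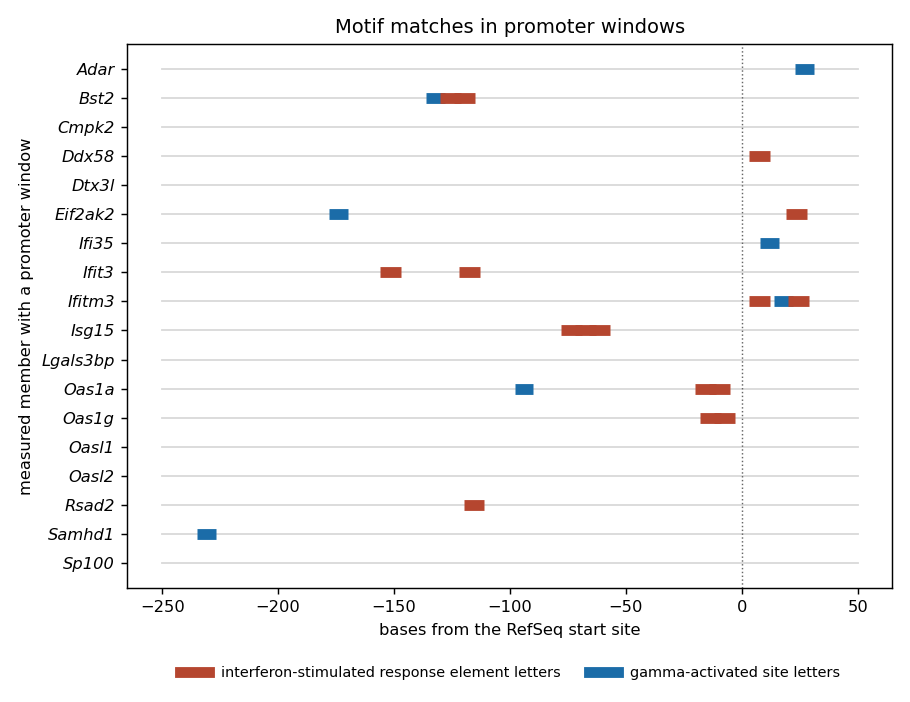
Positions of motif matches in the promoter windows of the 18 measured members that have one; the horizontal axis is the distance in bases from the RefSeq start site, red marks GAAA-NN-GAAA and blue TTC-NNN-GAA on either strand, with all windows of a gene on its line. Red marks appear in 9 genes, upstream of the start site in Bst2, Ifit3, Isg15, Oas1a, Oas1g and Rsad2 and downstream of it in Ddx58, Eif2ak2 and Ifitm3.

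Across the 24 measured members, the knockout mean was the lower one for 17 and the higher one for 7, with changes from -1.10 for Oas2 to 0.35 for Ifi35 and a median of -0.12. Over all genes tested, 48.3% had a lower mean and the median change was 0.012. No member passed limma's test at an adjusted p under 0.05 in either direction, where 0.0484% of all genes were called lower and 0.0484% higher (5 genes each). When arrays were instead given the same median over all probes (median scaling), 187 genes were called lower and 14 higher. Under that scaling the median change of all genes was itself -0.33. At an unadjusted p under 0.05, 2 members, Oas2 and Usp18, were lower and 0 were higher, against 5.1% and 4.25% of all genes. The groups did not overlap, with the knockout lower, for 6 members (25%), against 19.1% of all genes. These 6 were Oas2, Oasl1, Oasl2, Usp18, Samhd1 and Parp14, while Ifi35 was the only measured member with both knockout arrays above both wild type arrays, against 20.8% of all genes. For Oasl1, Samhd1 and Parp14 a dimmer kept probe overlapped between the groups. The median depended on single arrays: leaving out wild type array 1 gave -0.037 and leaving out wild type array 2 gave -0.29. Leaving out knockout array 1 gave -0.057, and leaving out knockout array 2 gave -0.28.

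**Figure D2:**
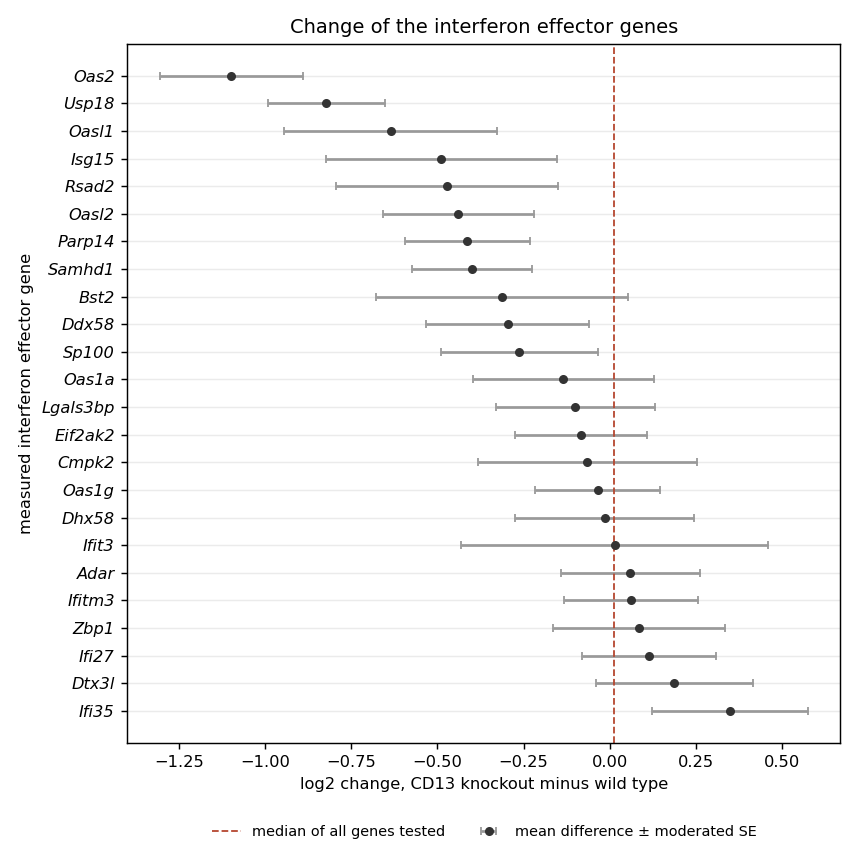
Log2 change of each measured member, knockout minus wild type, as points with bars of 1 moderated SE (2 arrays per group); the dashed line is the median of all 10335 genes and unnamed probes. Oas2 (-1.10) and Usp18 (-0.82) lie farthest to the left, and the bars of Bst2 and of the genes from Oas1a down to Dtx3l reach the line.

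The wild type arrays also differed from each other in these genes, with a median of 0.21 for wild type array 1 minus wild type array 2. Wild type array 1 was the highest of the 4 arrays for 13 of 24 members (54.2%), against 19.2% of all genes, and it lay above wild type array 2 for 19 of 24 (79.2%), against 48.8%. The median deviation of the members from each gene's own mean over the arrays was 0.19 on wild type array 1 and -0.068 on wild type array 2. It was -0.19 on knockout array 1 and -0.050 on knockout array 2. For all genes these 4 medians lay between -0.0035 and 0.011. Set against wild type array 1 alone, the knockout mean was lower for 21 members (median -0.29), and against wild type array 2 alone for 14 members (median -0.037). Knockout array 1 was the higher of the knockout arrays for 9 members (37.5%), against 49% of all genes.

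**Figure D3:**
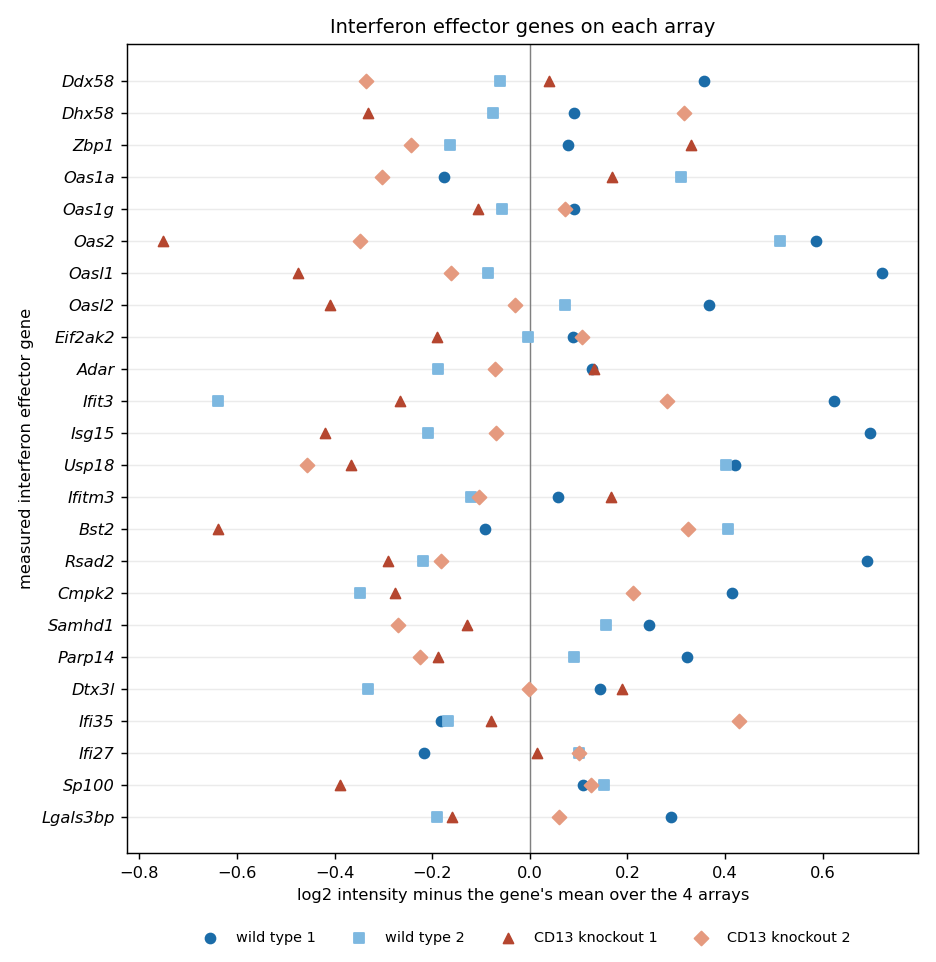
Log2 intensity of each measured member on each array, minus that gene's mean over the 4 arrays, for wild type 1 (dark blue circles), wild type 2 (light blue squares), knockout 1 (dark red triangles) and knockout 2 (light red diamonds). For Oas2 and Usp18 both blue symbols lie together on the right and both red ones on the left, whereas for Rsad2, Isg15, Ifit3 and Cmpk2 the dark blue circle is highest and the light blue square lies among or below the red symbols.

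Cytosolic sensors bind viral nucleic acid and start interferon production. Ddx58, which encodes the RNA helicase RIG-I, had log2 intensities of 8.74 and 8.32 in wild type, against 8.42 and 8.05 in knockout, a change of -0.30 ± 0.24 (SE, limma adjusted p = 0.774). Dhx58, a related helicase that tunes RIG-I signalling, read 9.02 and 8.86 in wild type, against 8.60 and 9.25 in knockout. Zbp1, a sensor of Z-form nucleic acid that can trigger necroptosis, read 7.30 and 7.06 against 7.55 and 6.98. The groups overlapped for all 3 genes, and the wild type 1 value was above the wild type 2 value in each. The other 2 kept probes of Dhx58 gave changes of -0.35 and -0.37, lower than the -0.015 of the probe that stands for it. The sensor Ifih1 was not above background on any array.

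The double-stranded RNA arm held the member with the lowest unadjusted p. Oas2, an oligoadenylate synthetase whose product activates the ribonuclease RNase L, had log2 intensities of 10.08 and 10.005 in wild type, against 8.74 and 9.14 in knockout. Its wild type arrays were nearly level and both knockout arrays lay below them, with a knockout mean lower by 2.14-fold (log2 change -1.10 ± 0.21 SE, limma unadjusted p = 0.00231, adjusted p = 0.27). Among 14 other processing settings Oas2 passed in 1, median scaling of each array (limma adjusted p = 0.0216), where its change was -1.46 and the median of all genes was itself -0.33.

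Oas1g, a close paralog, showed no such gap, with 11.78 and 11.63 in wild type against 11.58 and 11.76 in knockout. Oas1a read 6.53 and 7.02 against 6.87 and 6.40, near the detection limit, and its probe was not above background on knockout array 2. Oas1a and Oas1g belong to a cluster of near-identical genes, and their probes may read more than a single member. Oas3, the direct neighbour of Oas2 on chromosome 5, was not above background on any array.

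Among the synthetase-like genes, Oasl1, whose product restrains translation of Irf7, read 9.55 and 8.74 in wild type, against 8.35 and 8.67 in knockout (change -0.64 ± 0.31 SE, limma adjusted p = 0.616). Its wild type 2 value was close to knockout 2, and the separation of the groups came mainly from wild type 1. Without wild type array 1 its change was -0.23, and without wild type array 2 it was -1.04. The other kept probe of Oasl1 read 7.98 and 7.38 in wild type, against 7.46 and 7.29 in knockout (change -0.31). On that probe the groups overlapped. Oasl2, its neighbour, read 10.82 and 10.53 against 10.04 and 10.42 (change -0.44 ± 0.22 SE, limma adjusted p = 0.633). Eif2ak2, the kinase PKR that halts translation, and Adar, which edits double-stranded RNA, overlapped between the groups. Eif2ak2 read 10.77 and 10.68 in wild type, against 10.50 and 10.79 in knockout, and Adar 9.21 and 8.89 against 9.21 and 9.01. The 4 kept probes of Adar ranged from -0.16 to 0.060. In this arm 6 of 7 measured members had a lower mean, with a median change of -0.13.

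Isg15 is a ubiquitin-like protein joined to target proteins and removed again by Usp18, which also shields the interferon receptor from further signalling. Usp18 read 9.46 and 9.44 in wild type, against 8.67 and 8.58 in knockout. The 2 arrays of each group agreed closely and the groups were apart, with a mean 1.77-fold lower in the knockout (log2 change -0.82 ± 0.17 SE, limma unadjusted p = 0.00349, adjusted p = 0.274). The other kept probe of Usp18 gave a change of -0.57. On the probe that stands for Usp18, the change stayed between -0.87 and -0.78 when any single array was left out. Isg15 itself read 8.30 and 7.39 in wild type, against 7.18 and 7.53 in knockout (change -0.49 ± 0.34 SE, limma adjusted p = 0.731). Only wild type 1 stood above the rest, and the wild type 2 value lay between the knockout values. Without wild type array 1 the change of Isg15 was -0.037.

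The proteins that starve or damage viral replication gave the same contrast between members. Rsad2, or viperin, makes a chain-terminating nucleotide from CTP, and Cmpk2, a mitochondrial nucleotide kinase, is its direct neighbour on chromosome 12. Rsad2 read 10.35 and 9.44 in wild type, against 9.37 and 9.48 in knockout (change -0.47 ± 0.32 SE, limma adjusted p = 0.728). Cmpk2 read 7.59 and 6.82 in wild type, against 6.90 and 7.38 in knockout. Both genes were highest on wild type 1, by 0.91 and 0.76 over wild type 2, and on both the wild type 2 value was no higher than the upper knockout value. Without wild type array 1 the change of Rsad2 was -0.018.

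Samhd1, which hydrolyses deoxynucleotides, followed the other pattern. It read 11.80 and 11.71 in wild type, against 11.43 and 11.29 in knockout, with both knockout arrays below both wild type arrays (change -0.40 ± 0.17 SE, limma adjusted p = 0.566). A dimmer probe of Samhd1, above background on every array, read 9.91 and 9.99 against 9.78 and 10.04 (change -0.044), so the separation of the groups depended on the probe. The remaining kept probe was above background on the wild type arrays alone. Isg20, a ribonuclease gene, lies on chromosome 7 with 15 protein-coding genes between it and Anpep. It stayed below the detection limit on every array.

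IFIT proteins bind viral RNA and block its translation. Ifit3 showed the widest gap between the wild type arrays of any measured member, reading 8.17 and 6.91, against 7.28 and 7.83 in knockout. Wild type 2 was the lowest of its 4 values and wild type 1 the highest, and the mean change was 0.015 ± 0.45 (SE). Ifit2 fell just outside the detection limit. Its brighter probe had deposited signals of 261.1 and 165.0 in wild type, against 122.5 and 129.5 in knockout, with detection p-values of 0.00534, 0.0203, 0.207 and 0.0662, so it was detected on wild type array 1 alone. Its other probe followed, at 249.4 and 137.4 against 109.5 and 112.4. Oas1a, detected on 3 arrays, lay just inside, with signals of 255.7 and 230.4 in wild type, against 200.3 and 144.3 in knockout. Ifit1 was not above background on any array. Of the 15 probes of the 10 members below the limit, 8 had a lower normalized mean in the knockout, all near background.

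Rsad2, Isg15, Ifit3, Cmpk2 and Oasl1 were thus the 5 members (20.8%) whose wild type 1 value exceeded wild type 2 by at least 0.75, a limit chosen after their values were seen. Over all genes, 2.81% had such a gap. Their gaps ran from 0.76 to 1.26. In all 5 knockout array 2 was above knockout array 1, and in 4 of them wild type 2 did not exceed the higher knockout value. The difference between the wild type arrays rests on single arrays and has no test.

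Mx1 and Mx2 encode dynamin-like GTPases that trap viral particles, and C57BL/6 mice are known to carry defective copies of both. Neither was above background on any array. At the membrane, Ifitm3, which blocks fusion of virus with the endosome, read 15.25 and 15.07 in wild type, against 15.35 and 15.08 in knockout, so the groups overlapped within a narrow range. Ifitm3 lies on the chromosome of Anpep, with 829 protein-coding genes between them. Bst2, or tetherin, holds budding virions at the cell surface, and read 9.30 and 9.80 in wild type, against 8.76 and 9.72 in knockout (change -0.31 ± 0.37 SE, limma adjusted p = 0.851). Knockout 1 alone was low for Bst2, and without it the change was 0.17. Rtp4 was not above background on any array.

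Parp14 and Dtx3l are neighbours on chromosome 16 and act in ADP-ribosylation and ubiquitination during interferon responses. Parp14 read 11.98 and 11.75 in wild type, against 11.47 and 11.43 in knockout (change -0.41 ± 0.18 SE, limma adjusted p = 0.568), with no overlap of the groups. A dimmer kept probe of Parp14, above background on 2 arrays, gave a change of -0.13, and on it the groups overlapped. Dtx3l read 9.12 and 8.65 in wild type, against 9.17 and 8.98 in knockout, a change of 0.19 ± 0.23 (SE), so the neighbours differed in the sign of their mean change. Parp9, the partner of Dtx3l, was not above background on any array.

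Of the remaining induced genes, Ifi35 read 8.33 and 8.35 in wild type, against 8.44 and 8.95 in knockout (change 0.35 ± 0.23 SE, limma adjusted p = 0.713). Its wild type arrays were level and knockout 2 was the highest. Sp100, a nuclear body protein that restrains viral genomes, read 8.50 and 8.55 in wild type, against 8.01 and 8.52 in knockout (change -0.26 ± 0.23 SE, limma adjusted p = 0.794), with only knockout 1 low on this probe. The other kept probe of Sp100 read 7.34 and 6.74 against 6.49 and 6.88 (change -0.36), highest on wild type 1. Lgals3bp, a secreted glycoprotein, read 13.70 and 13.22 against 13.25 and 13.47, highest on wild type 1. Ifi27 read 13.12 and 13.43 against 13.35 and 13.43, lowest on wild type 1. Its other kept probe, of like brightness, had the opposite sign (change -0.057) and was lowest on knockout 1. Xaf1 was not above background on any array.

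Other genes of the interferon pathway were described from a list of 44, of which 32 were measured. It holds ligands, receptors, kinases, transcription factors, sensing adaptors and inhibitors, with 2 genes of ISG15 conjugation and 6 more typical of interferon gamma. Of the 32, 18 lay lower in the knockout by their means, the median change was -0.060, 0 passed limma's test over all genes and 1, Socs3, had an unadjusted p under 0.05, against 9.35% of all genes in either direction. None of the 6 interferon ligands on the list passed the detection limit: Ifnb1 and the 4 Ifna genes were not above background on any array and Ifng was detected on 1. Ifnar1 was not above background on any array, while Ifnar2, the other chain of the type I receptor, was measured, with a change of 0.10 ± 0.19 (SE).

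Irf7, the factor that amplifies interferon production, read 9.03 and 8.58 in wild type, against 7.70 and 8.49 in knockout (change -0.71 ± 0.32 SE, limma adjusted p = 0.58). Irf9, the DNA-binding part of the interferon-activated complex, read 11.06 and 10.93 against 10.69 and 10.50 (change -0.39 ± 0.18 SE, limma adjusted p = 0.596). Irf1 had a change of -0.36 ± 0.22 (SE, limma adjusted p = 0.70). For these 3 of the 7 measured transcription factors both knockout arrays lay below both wild type arrays, against 19.1% of all genes. Irf3 (0.21) and Irf5 (0.30) went the other way, with both knockout arrays above both wild type arrays, against 20.8% of all genes. Irf8 (0.24) and Stat2 (-0.20) overlapped between the groups. Irf7 and Irf3 lie on chromosome 7, as Anpep does. Socs3, a feedback inhibitor of cytokine receptors, read 11.96 and 12.40 against 11.54 and 11.27 (change -0.77 ± 0.23 SE, limma adjusted p = 0.411). Pias1, an inhibitor of cytokine signalling, had a change of -0.31 ± 0.18 (SE, limma adjusted p = 0.698). Sting1, the adaptor for cytosolic DNA, had the opposite sign, at 0.85 ± 0.38 (SE, limma adjusted p = 0.573). Of 5 measured genes more typical of interferon gamma, such as Gbp2 and Irgm1, 2 had a lower mean, with a median change of 0.015.

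Markers of cell types differed between the groups and between the wild type arrays. In bulk RNA, fewer cells of a type and less RNA per cell cannot be told apart. Of the 7 measured macrophage markers, 5 had lower knockout means (median change -0.18), and 0 passed limma's adjusted test. For Itgam (-1.59), Adgre1 (-0.51), Csf1r (-0.40), Cd14 (-0.18) and Lyz2 (-0.065) both knockout arrays lay below both wild type arrays, against 19.1% of all genes. Lyz2 read 15.83 on both wild type arrays, against 15.79 and 15.74 in knockout, so its groups were barely apart. Mertk (0.27) and Fcgr1 (0.36) had higher knockout means. Of 8 large peritoneal macrophage markers 7 were measured, and all 7 had lower knockout means, with a median change of -1.03 and an unadjusted p under 0.05 for 5 (background 5.1%); 0 passed limma's adjusted test. The summed level of a list is the log2 of its added unlogged intensities, so the brightest genes weigh most. For these 7 markers it was 13.47 to 14.64 in wild type and 12.96 to 13.11 in knockout. Among them Gata6, the factor that defines these cells, read 9.45 and 10.62 in wild type, against 9.88 and 9.17 in knockout. On these markers wild type array 2 was the highest (median deviation 1.24) and wild type array 1 lay at -0.026. The interferon effectors were highest on wild type array 1 (0.19), which was not particular to them. Among the pathway lists the same array was highest for transcription factors (0.26), genes more typical of interferon gamma (0.26), kinases (0.19) and ISG15 conjugation (0.079). Receptors and inhibitors were highest on wild type array 2, and sensing adaptors on knockout array 2.

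For plasmacytoid dendritic cells, which make interferon, 2 of 6 markers were measured, Ly6d and Tcf4. Their summed levels were 11.88 to 11.92 in wild type and 11.36 to 11.65 in knockout. Tcf4, the brighter, weighed most in them and read 11.72 and 11.65 against 11.27 and 11.48. The defining marker of these cells, Siglech, was detected on 1 array and Ccr9 on 0. Ly6d and Tcf4 alone do not give a level of these cells. For B cells 4 of 7 markers were measured, at 11.41 to 11.73 in wild type and 10.66 to 11.33 in knockout. They disagreed, as 3 had lower knockout means while Cd22 was higher on both knockout arrays (log2 change 0.93). For neutrophils 4 of 9 were measured, at 11.21 to 11.73 in wild type and 11.73 to 11.83 in knockout. Of these, 3 had higher knockout means, with Ltf at 2.00, and S100a9, detected on 1 array per group, stood at -0.025. Ltf was detected on 1 of the wild type arrays, where it read 6.90 and 5.73, so its change was taken from values near background. For T and NK cells 2 of 7 were measured, at 9.04 to 9.42 against 10.01 to 10.20. These 2 disagreed, with Lat at 2.05 and Cd2 at -0.32 (log2 change), and Cd3e was not above the limit. For dendritic cells 4 of 6 were measured, at 10.02 to 10.33 against 9.89 to 10.18. Here 3 had lower knockout means, while Batf3 was higher on both knockout arrays (log2 change 0.96). Small peritoneal macrophages and monocytes had 4 of 6 markers measured, at 14.07 to 14.57 against 13.01 to 13.62. Fn1, the brightest, weighed most in these levels and read 13.71 and 14.28 against 13.26 and 12.32. Irf4, Fn1 and Plac8 had lower knockout means, while Itgax was higher on both knockout arrays (log2 change 2.07). Mast cells and basophils had 2 of 6, at 7.72 to 8.05 against 7.02 to 7.92. Cpa3 had a lower knockout mean and Kit, detected on 1 array per group, a higher one. No marker of eosinophils or mesothelium was measured, including Epx and Msln. Itgam, Itgax, Lat and Cd22 lie on chromosome 7, as Anpep does, and the part of that position in their values was not tested. The part of these cell types in the values of the interferon effectors was not tested.

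**Figure D4:**
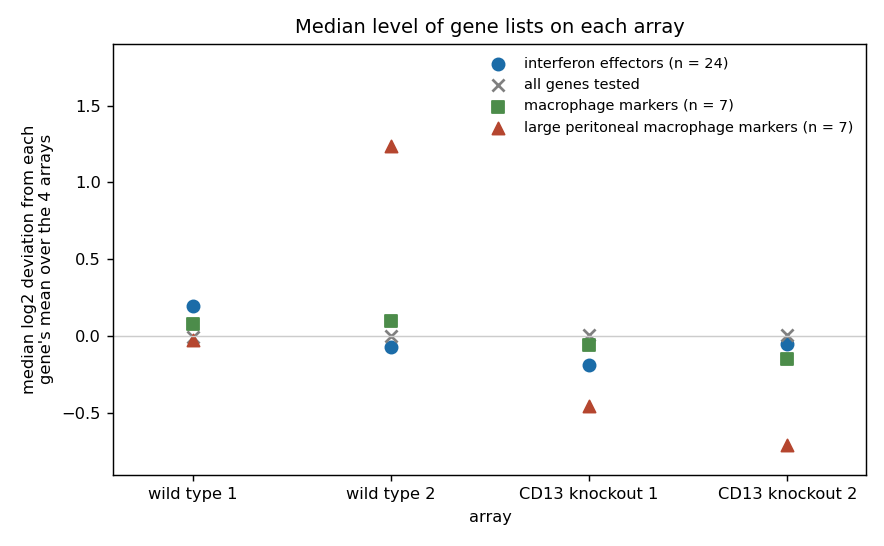
Median log2 deviation from each gene's mean over the 4 arrays, for the 24 measured interferon effectors (blue circles), all genes tested (grey crosses), 7 macrophage markers (green squares) and 7 large peritoneal macrophage markers (red triangles), by array. The interferon effectors are highest on wild type 1 (0.19), whereas the large peritoneal macrophage markers are highest on wild type 2 (1.24).

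The member median was negative under all 15 processing settings run, the one reported included. The number of members with a lower mean ranged from 14 without wild type array 1, and also without knockout array 1, to 24 with median scaling. These counts are out of 24, except in 2 settings. Without the filter on dim probes it was 23 of 34 members, and for probes detected on all 4 arrays 16 of 23. Under that scaling the median of all genes was -0.33 and the member median -0.43, a difference of -0.10, and 18 of 24 members lay below the median of all genes.

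**Figure D5:**
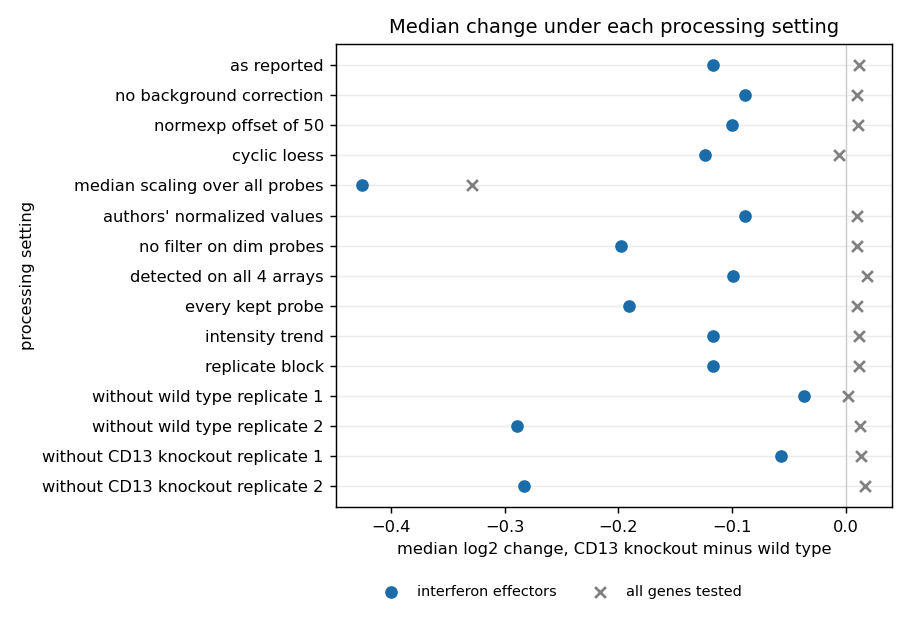
Median log2 change of the interferon effectors (blue) and of all genes tested (grey crosses) under each of 15 processing settings, knockout minus wild type. The effectors are the 24 measured members, but 34 members without the filter on dim probes (29453 genes) and 23 for probes detected on all 4 arrays (9216 genes). For every kept probe the cross is the median of 14881 probes. The blue points lie to the left of the crosses in each setting, closest without wild type replicate 1 (-0.037 against 0.0022).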

How the data were processed

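Transcript levels were read on Illumina MouseWG-6 v2.0 BeadChips from 2 wild type and 2 CD13 knockout samples, all peritoneal macrophages per the labels. The authors deposited the average bead intensity per probe, not normalized between arrays, with a detection p-value for each probe and array. A further deposited table holds intensities after GenomeStudio's quantile algorithm, as the series text says; the version and any background subtraction are not given in the sources used here. Intensities were background corrected with normexp informed by the detection p-values (offset 16), quantile normalized and log2 transformed (neqc, limma 3.58.1, R 4.3.3). The platform annotation pairs 34885 of the 45281 probes with 1 symbol, 18 with several and 10378 with none; by gene ID, 34807 were found in the RefSeq table for GRCm38.p6. A probe was kept if its detection p-value was below 0.01 on 2 or more arrays, 14881 in all, and the one with the highest mean deposited signal stood for a gene, giving 10335 genes and unnamed probes. Knockout was compared with wild type with lmFit and eBayes, adjusted by Benjamini-Hochberg over all of them, with a threshold of 0.05.

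Every measured member could be named; errors with an adjusted p were given for the 12 with the smallest unadjusted p. Of the pathway list, the 6 genes with the smallest unadjusted p were named by rule; Irf3, Irf5, Irf8, Stat2 and marker genes with values were named after these were seen. Members and lists were chosen with earlier results of these data known. On data simulated for this comparison (10335 genes, 10 simulations, 200 changed genes), 7.91% of genes changed by 1 log2 unit, 82.8% changed by 2 and 97.4% changed by 4 were called. A mean of 7 unchanged genes were called as well. The noise was independent between genes, and 200 changes make the adjusted threshold easier to reach than in the data, with 5 calls in each direction. These shares may therefore overstate what could be called here. Over genes, array 1 minus array 2 in wild type and the same difference in knockout had a correlation of -0.0021. The replicate numbers were therefore not treated as pairs. Precision is limited by there being 2 arrays per group.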

Additional observations from a re-analysis of the deposited data

How the results depend on the processing

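For genes over all 10335 tested, 5 higher and 5 lower calls became 14 and 187 with median scaling, 3 and 3 without the filter on dim probes and 1 and 3 for probes detected on all 4 arrays. Lower calls were 8 without background correction, with an offset of 50 and with the authors' values, 10 with an intensity trend and 9 over every kept probe. With an array left out, higher calls numbered 3 to 7 and lower calls 2 to 5. Of the members, 0 were called except with median scaling, where 1 (Oas2, log2 change -1.46) was called lower. The member median was -0.43 with median scaling and -0.29 to -0.037 without single arrays. The median of the interferon pathway genes was -0.39 with median scaling and -0.17 to 0.098 without single arrays, with the sign turned when wild type array 1 (0.028) or knockout array 1 (0.098) was left out.

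Of 335 member values under other settings, 300 kept their direction and their side of the threshold, 34 turned in sign and 1 passed the threshold. With median scaling, under which the median change of all genes was -0.33, the sign turned for Adar (-0.30), Dtx3l (-0.17), Ifi27 (-0.20), Ifi35 (-0.019), Ifit3 (-0.35), Ifitm3 (-0.12) and Zbp1 (-0.26). It turned for Adar with every kept probe (-0.035), and for Ifit3 without background correction (-0.016), with an offset of 50 (-0.0021), with cyclic loess (-0.021) and with the authors' values (-0.016). Without single arrays the changes ranged from -0.10 to 0.22 for Adar, -0.79 to 0.17 for Bst2, -0.45 to 0.32 for Cmpk2, -0.34 to 0.31 for Dhx58, -0.050 to 0.43 for Dtx3l, -0.23 to 0.064 for Eif2ak2, -0.044 to 0.27 for Ifi27, -0.62 to 0.65 for Ifit3, -0.073 to 0.20 for Ifitm3, -0.34 to 0.14 for Lgals3bp, -0.38 to 0.11 for Oas1a, -0.12 to 0.055 for Oas1g and -0.20 to 0.37 for Zbp1, each with a change of sign. Leaving out an array leaves fewer samples; for the other shifts the cause was not tested. With the replicate number as a block, 6 genes were called higher and 7 lower, 0 members were called, and the adjusted p was 0.215 for Oas2 and 0.262 for Usp18. Signals near background, as for Oas1a and Ifit2, limit what the arrays can show.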
